A study of Homo sapiens with 3 samples.

Results

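The thioredoxin, peroxiredoxin and sulfiredoxin genes TXN, TXN2, TXNRD1, TXNRD2, SRXN1, PRDX1, PRDX2, PRDX3, PRDX5 and PRDX6 were taken by gene name from the deposited table, where each name had 1 identifier, giving 10 genes of 50868. Total RNA of cells labelled AGS, an established line from a human gastric adenocarcinoma, was sequenced after removal of ribosomal RNA. The cells were cultured for 48 h with 12 µM of a compound named SFA, with 18 µM of a compound named SFE, or with DMSO, the vehicle. Each condition had 1 library, all from the same line, so no difference could be set against the spread between cultures, no p-value was computed, and the doses of the compounds differed. SFA and SFE are known here by these code names alone. Both comparisons use the same DMSO library.

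Thioredoxin is a small protein that reduces disulfides in other proteins, and thioredoxin reductase, a selenoprotein, recharges it with electrons from NADPH. Peroxiredoxins use a reactive cysteine to reduce hydrogen peroxide and other peroxides, and most of them are returned to the reduced state by thioredoxin. Under high peroxide the cysteine of the typical 2-Cys peroxiredoxins can be overoxidized to a sulfinic acid, which sulfiredoxin reverses. TXN and TXNRD1 serve the cytosol and nucleus, and TXN2 and TXNRD2 serve the mitochondrion. TXN, TXNRD1, SRXN1 and PRDX1 are known targets of NRF2, a transcription factor that is activated by oxidants and electrophiles and binds antioxidant response elements.

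The total count was 13639844 in the SFA library, 13644676 in the SFE library and 18767232 in the DMSO library. The 10 genes together took 0.395% of counts with SFA (95% exact Clopper-Pearson interval 0.391 to 0.398), 0.363% with SFE (0.360 to 0.367) and 0.294% with DMSO (0.291 to 0.296). Intervals here and below cover counting error only and leave out the spread between cultures. They take each read as an independent molecule. Reads without molecular identifiers are not, so the intervals can be too narrow even for counting error. Of the epithelial markers, KRT8 and KRT18 stood at 223 FPKM or more in every library, whereas KRT19 and EPCAM stood at 0.336 FPKM or less. KRT19 had at most 13 counts and EPCAM at most 27. KRT19, EPCAM and the fibroblast markers below thus do not bear out the name AGS, an epithelial line, which is taken from the labels. The identity of the cells was not tested. The 4 fibroblast markers (COL1A1, COL3A1, PDGFRB and THY1) summed to 16.6 FPKM with SFA, 19.8 with SFE and 30.4 with DMSO, with COL1A1, COL3A1 and PDGFRB lower and THY1 higher with both compounds. KRT8 and KRT18 were also lower, and the epithelial markers summed to 516 FPKM with SFA, 526 with SFE and 951 with DMSO. The part of these shifts in the results below was not tested, and in bulk RNA fewer cells of a type and less RNA per cell cannot be told apart. Leukocyte, endothelial and erythroid markers summed to at most 0.565 FPKM in any library, with CD3E at 0 in all 3.

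Promoter windows, from 250 bases before to 50 bases after a RefSeq transcription start (GRCh38.p14), were held for 7 of the 10 genes. They are shown for the reductase TXNRD1 at both of its listed starts, for SRXN1 and TXN, which with TXNRD1 had the largest positive differences, and for PRDX2, the lowest of the 10 against DMSO with both compounds. TXN2, PRDX1 and PRDX6 had none. Each sequence reads 5′ to 3′ on the gene's strand in lower case, and capitals mark matches to the antioxidant response element core TGACNNNGC or to the TATA box TATAAA on either strand.
TXNRD1 upstream start, chr12:104215529-104215828, plus strand: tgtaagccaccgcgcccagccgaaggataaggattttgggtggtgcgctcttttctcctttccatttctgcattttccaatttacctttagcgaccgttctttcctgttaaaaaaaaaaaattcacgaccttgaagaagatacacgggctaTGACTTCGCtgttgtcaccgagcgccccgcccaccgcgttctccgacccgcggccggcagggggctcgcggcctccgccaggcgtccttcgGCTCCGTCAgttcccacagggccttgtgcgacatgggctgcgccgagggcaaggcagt
TXNRD1 downstream start, chr12:104286782-104287081, plus strand: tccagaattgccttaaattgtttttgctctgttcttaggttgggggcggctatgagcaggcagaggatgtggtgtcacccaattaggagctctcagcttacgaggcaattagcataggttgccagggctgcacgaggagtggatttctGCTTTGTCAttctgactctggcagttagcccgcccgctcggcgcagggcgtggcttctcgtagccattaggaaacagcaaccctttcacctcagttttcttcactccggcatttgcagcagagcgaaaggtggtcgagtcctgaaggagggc
SRXN1, chr20:653151-653450, minus strand: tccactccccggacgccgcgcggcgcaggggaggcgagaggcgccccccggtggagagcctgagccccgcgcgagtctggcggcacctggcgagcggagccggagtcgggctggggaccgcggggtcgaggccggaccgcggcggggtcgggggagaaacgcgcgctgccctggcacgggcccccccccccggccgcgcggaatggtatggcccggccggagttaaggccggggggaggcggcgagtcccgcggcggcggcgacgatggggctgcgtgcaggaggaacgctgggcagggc
TXN, chr9:110256458-110256757, minus strand: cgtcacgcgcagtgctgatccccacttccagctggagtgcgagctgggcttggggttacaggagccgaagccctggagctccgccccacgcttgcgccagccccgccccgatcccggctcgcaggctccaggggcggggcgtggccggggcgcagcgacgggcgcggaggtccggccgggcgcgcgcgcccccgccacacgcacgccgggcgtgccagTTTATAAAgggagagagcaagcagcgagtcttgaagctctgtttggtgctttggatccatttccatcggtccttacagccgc
PRDX2, chr19:12801751-12802050, minus strand: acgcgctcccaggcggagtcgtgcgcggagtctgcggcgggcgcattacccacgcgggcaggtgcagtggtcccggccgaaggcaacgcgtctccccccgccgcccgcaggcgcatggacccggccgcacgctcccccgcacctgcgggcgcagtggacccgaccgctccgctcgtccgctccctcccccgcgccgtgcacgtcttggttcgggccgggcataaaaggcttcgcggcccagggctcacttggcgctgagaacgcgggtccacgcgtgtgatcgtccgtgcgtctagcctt

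Over both strands, TGACNNNGC was found in 2 of 11 promoter windows of these genes, both of them TXNRD1 windows, against 13.3% of all 35116 windows in the table. The upstream TXNRD1 window holds TGACTTCGC beginning 99 bases before the start and, on the opposite strand, TGACGGAGC in a match that begins 8 bases before it. The downstream TXNRD1 window holds TGACAAAGC on the opposite strand, beginning 102 bases before the start. The AP-1 letters TGANTCA were in none of the 11 windows (7.71% of all windows). The GC box GGGCGG was in 8 of them (45.0% of all windows), with 3 matches each for TXN and PRDX3 and for the TXNRD2 window with the start at 19941818. TATAAA was in 2 windows, one of TXN and one of TXNRD2 (11.5% of all windows). In TXN it matched on both strands at overlapping positions, beginning 32 and 30 bases before the start. The SRXN1 window held none of the 4 motifs. These are matches of letters in short windows and say nothing about binding.

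SRXN1, which encodes sulfiredoxin, had the largest difference from DMSO of the 10 genes with both compounds. It lies on chromosome 20 (646615 to 653370, minus strand, hg38) and stood at 105 FPKM with SFA, 76.8 FPKM with SFE and 38.0 FPKM with DMSO. FPKM divides a gene's count by its length and by the total count of the library. The highest value was in the SFA library and the lowest in the DMSO library. Counts per library total were 2.77-fold higher with SFA than with DMSO (95% counting interval 2.62 to 2.92) and 2.02-fold higher with SFE than with DMSO (1.9 to 2.14). SRXN1 overlaps 1 other listed gene, on the same strand, which had at most 1 count in a library.

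Both thioredoxin reductases were higher with each compound. TXNRD1, the cytosolic reductase, on chromosome 12 (104215779 to 104350305, plus strand), stood at 44.1 FPKM with SFA, 38.6 FPKM with SFE and 19.8 FPKM with DMSO. Its counts per library total were 2.23-fold higher with SFA (2.16 to 2.30) and 1.95-fold higher with SFE (1.89 to 2.01). TXNRD2, the mitochondrial reductase, on chromosome 22 (19875517 to 19941992, minus strand), stood far below it, at 4.03 FPKM with SFA, 3.6 FPKM with SFE and 2.73 FPKM with DMSO. The TXNRD2 difference was 1.47-fold with SFA (1.33 to 1.62) and 1.32-fold with SFE (1.19 to 1.46). TXNRD1 differed by more than TXNRD2: the TXNRD1 to TXNRD2 count ratio was 13.0 with SFA, 12.7 with SFE and 8.59 with DMSO, 1.51 times the DMSO ratio with SFA (1.37 to 1.68) and 1.48 times with SFE (1.33 to 1.65).

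The thioredoxins were higher too, by less than SRXN1 and TXNRD1. TXN, the cytosolic thioredoxin, on chromosome 9 (110243811 to 110256640, minus strand), stood at 277 FPKM with SFA, 249.9 FPKM with SFE and 178 FPKM with DMSO. This was 1.56-fold above DMSO with SFA (1.5 to 1.62) and 1.40-fold with SFE (1.35 to 1.46). TXN2, the mitochondrial thioredoxin, on chromosome 22 (36467036 to 36482030, minus strand), stood at 12.2 FPKM with SFA, 13.0 FPKM with SFE and 9.45 FPKM with DMSO. Its fold over DMSO was 1.29 with SFA (1.16 to 1.43) and 1.38 with SFE (1.24 to 1.53). TXN2 and TXN overlap no other listed gene.

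**Figure D1:**
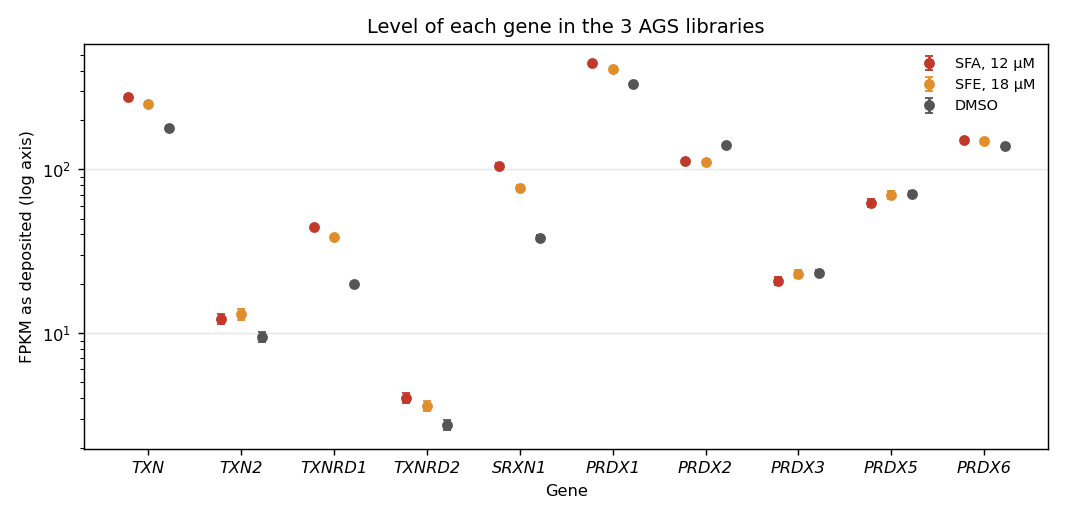
Level of each of the 10 genes (x axis) as deposited FPKM on a log axis (y axis) in the SFA, SFE and DMSO libraries, 1 point per library, with exact Poisson 95% counting intervals. SRXN1 stands at 105, 76.8 and 38.0 FPKM in that order, while PRDX2 is lowest with SFE and with SFA (111 and 112 FPKM) and highest with DMSO (140.3 FPKM).

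The typical 2-Cys peroxiredoxins, which depend on thioredoxin and can be repaired by sulfiredoxin, did not share a direction. PRDX1, the abundant cytosolic form, on chromosome 1 (45511036 to 45523047, minus strand), stood at 442 FPKM with SFA, 407 FPKM with SFE and 333 FPKM with DMSO, 1.33-fold above DMSO with SFA (1.30 to 1.36) and 1.22-fold with SFE (1.2 to 1.25). PRDX2, also cytosolic, on chromosome 19 (12796820 to 12801859, minus strand), stood at 112 FPKM with SFA, 111 FPKM with SFE and 140.3 FPKM with DMSO. PRDX2 was thus the member lowest against DMSO, 1.26-fold lower with SFA (1.22 to 1.30) and 1.27-fold lower with SFE (1.23 to 1.31). PRDX3, the mitochondrial form, on chromosome 10 (119167703 to 119178833, minus strand), stood at 20.7 FPKM with SFA, 23.0 FPKM with SFE and 23.3 FPKM with DMSO. Its fold over DMSO was 0.891 with SFA (0.828 to 0.958) and 0.989 with SFE (0.922 to 1.06). The SFE interval includes 1 when scaled by the total count, but not under scaling by trimmed mean of M values (TMM), where the fold was 0.924 (0.861 to 0.992).

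PRDX5, an atypical 2-Cys peroxiredoxin found in mitochondria, peroxisomes and cytosol, on chromosome 11 (64318088 to 64321811, plus strand), stood at 62.6 FPKM with SFA, 69.6 FPKM with SFE and 70.9 FPKM with DMSO. It was 1.13-fold lower with SFA (1.05 to 1.22), and its fold over DMSO with SFE was 0.982 (0.915 to 1.05). That SFE interval includes 1 too when scaled by the total count, but not under TMM scaling, where the fold was 0.918 (0.855 to 0.985), nor under median-of-ratios scaling, at 0.930 (0.866 to 0.998). PRDX6, the 1-Cys peroxiredoxin, which is recharged by glutathione rather than thioredoxin, on chromosome 1 (173477266 to 173488807, plus strand), stood at 151 FPKM with SFA, 149 FPKM with SFE and 138 FPKM with DMSO. Its fold over DMSO was 1.09 with SFA (1.06 to 1.13) and 1.08 with SFE (1.04 to 1.11). Under TMM scaling the SFA value was 1.05 (1.01 to 1.08) and the SFE value 1.01 (0.975 to 1.04), an interval that includes 1.

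**Figure D2:**
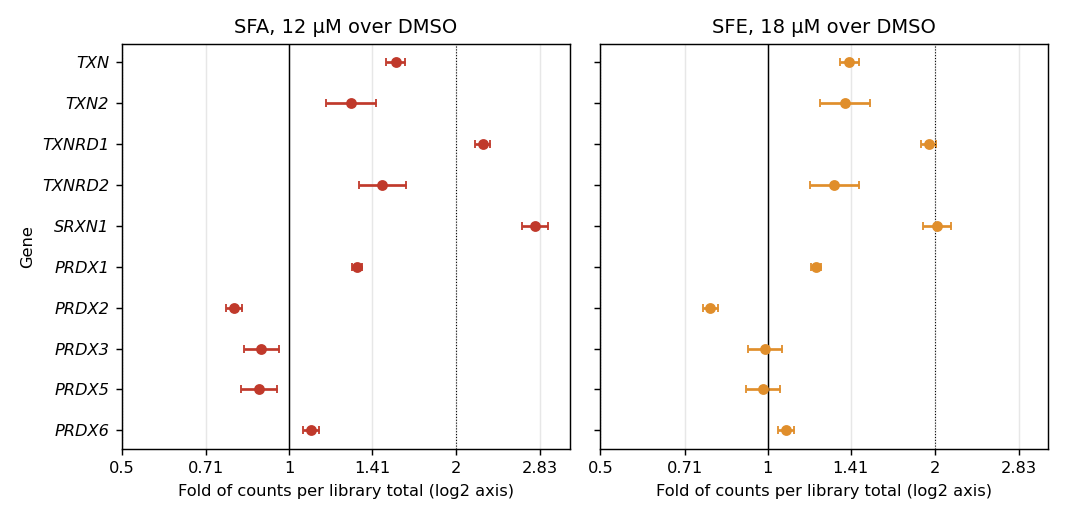
Fold of counts per library total over DMSO (x axis, log2 axis) for each of the 10 genes (y axis) with SFA on the left and SFE on the right. Points are single-library ratios, bars are exact conditional 95% counting intervals, and the dotted lines mark a 2-fold difference: SRXN1 and TXNRD1 lie past the upper line with SFA, and with SFE they lie at 2.02 and 1.95.

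Differences past 2-fold on the log2(FPKM + 1) scale were then counted. Only genes that reached 1 FPKM in any library entered the count, 11680 in all, and all 10 members did. With SFA, 2 of the 10 members, SRXN1 (log2 difference 1.44) and TXNRD1 (1.12), were at least 2-fold higher, where 1.36% of all tested genes were, and 0 were at least 2-fold lower (1.34% of all genes). With SFE, 0 of 10 were at least 2-fold higher (1.37% of all genes) and 0 at least 2-fold lower (1.01%). SRXN1 lay just under the limit with SFE at 0.99, and TXNRD1 at 0.93. At a 1.5-fold limit, TXN joined SRXN1 and TXNRD1 with SFA, making 3 members (5.36% of all genes), and SRXN1 and TXNRD1 passed with SFE, making 2 (5.34%). At that limit 0 members were lower with SFA (4.67% of all genes) and 0 with SFE (3.48%). By any amount, 7 members were higher with SFA, where 51.4% of all tested genes were, and 7 with SFE, where 55.2% were. The 3 lower members were PRDX2, PRDX3 and PRDX5 with each compound, where 48.6% of all tested genes were lower with SFA and 44.8% with SFE. The median log2 difference of the 10 members was 0.37 with SFA and 0.29 with SFE, beside 0.01 and 0.03 over all tested genes. Among the members that overlap no other gene (TXN, TXN2, PRDX3, PRDX5 and PRDX6), 0 were at least 2-fold higher with SFA. Of all 3957 tested genes that overlap no other, 1.39% were. The medians of these members were 0.13 with SFA and 0.11 with SFE, beside 0.01 and 0.03 over all such genes.

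The balance between partner genes can be read within each library, where the scaling of libraries drops out; these pairs were chosen after the values were seen. SRXN1 had 0.228 counts for each count of PRDX1 with SFA, 0.181 with SFE and 0.109 with DMSO. Relative to DMSO this ratio was 2.09 times higher with SFA (1.97 to 2.21) and 1.65 times with SFE (1.55 to 1.76). The SRXN1 to PRDX2 ratio differed more, at 3.47 times the DMSO ratio with SFA (3.26 to 3.70) and 2.56 times with SFE (2.40 to 2.74). This pair joins the members with the highest and the lowest fold over DMSO, so its ratio had to differ most among pairs of members. The ratio of TXNRD1 to TXN, the protein its product reduces, was 1.43 times the DMSO ratio with SFA (1.36 to 1.51) and 1.39 times with SFE (1.32 to 1.46). In the mitochondrial pair, the TXNRD2 to TXN2 ratio had an interval that spans no difference with either compound, 1.14 (0.987 to 1.32) with SFA and 0.957 (0.828 to 1.11) with SFE. TXN2 relative to PRDX3 was 1.45 times the DMSO ratio with SFA (1.28 to 1.65) and 1.39 times with SFE (1.23 to 1.58).

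**Figure D3:**
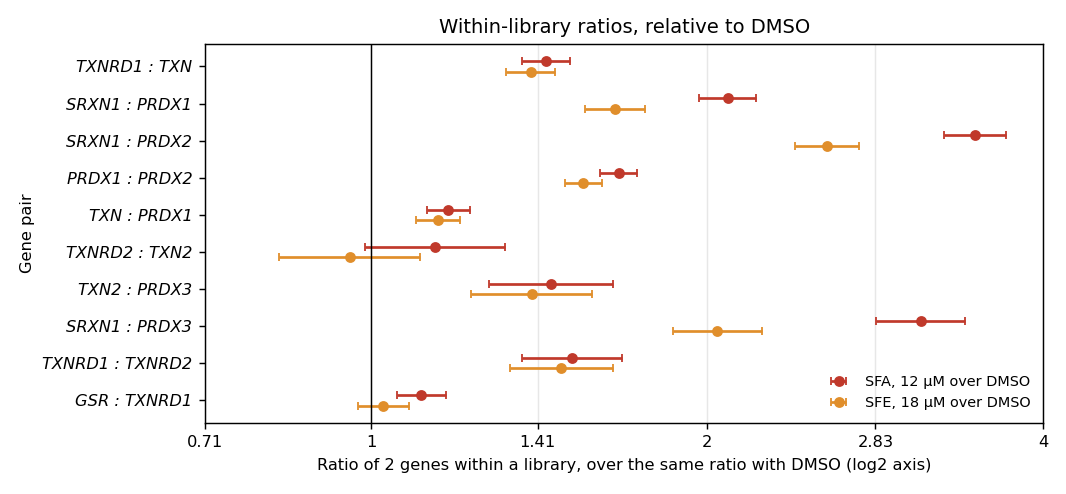
For 10 pairs of genes (y axis), the ratio of their counts within a library divided by the same ratio in the DMSO library (x axis, log2 axis), with 95% counting intervals. SRXN1 to PRDX2, the members with the highest and lowest fold over DMSO, lies farthest from 1, at 3.47 with SFA and 2.56 with SFE. The interval of TXNRD2 to TXN2 includes 1 with both.

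Of the summed FPKM of the 6 peroxiredoxins (PRDX4, the form of the endoplasmic reticulum, included), PRDX1 made up 52.2% with SFA, 49.8% with SFE and 43.8% with DMSO. PRDX2 made up 13.2% with SFA, 13.5% with SFE and 18.5% with DMSO. The PRDX1 to PRDX2 count ratio was 2.79 with SFA, 2.60 with SFE and 1.68 with DMSO. The sum itself was 847 FPKM with SFA, 817 FPKM with SFE and 760.5 FPKM with DMSO. PRDX6 kept a share of 17.8% to 18.2% in the 3 libraries. These shares depend on the length behind the deposited FPKM. Per kilobase of exon, PRDX1 made up 56.7% with SFA, 54.4% with SFE and 47.8% with DMSO. PRDX2 made up 14.8%, 15.2% and 20.7% in that order, and PRDX6 13.8%, 14.2% and 14.1%. On that scale PRDX2 stood above PRDX6 in every library.

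**Figure D4:**
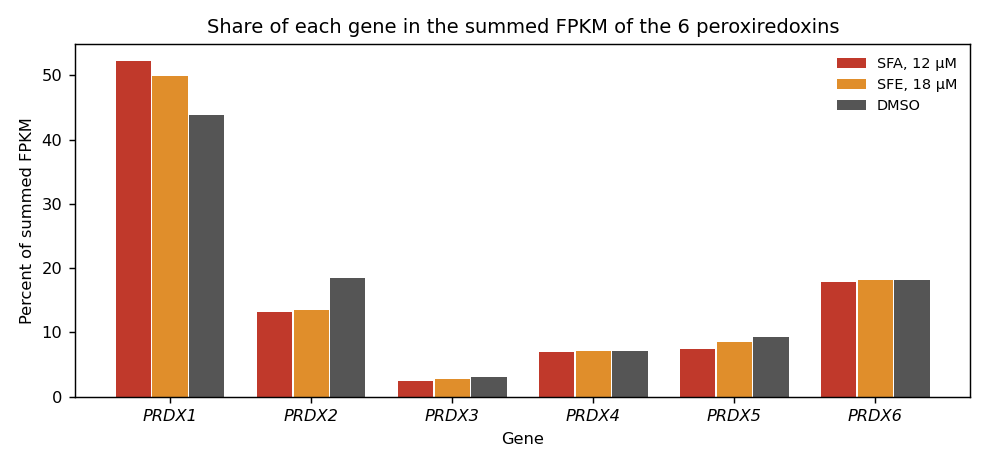
Share of each peroxiredoxin gene (x axis) in the summed FPKM of all 6 (y axis, percent) in the SFA, SFE and DMSO libraries, 1 bar per library. PRDX1 stands at 52.2%, 49.8% and 43.8% in that order and PRDX2 at 13.2%, 13.5% and 18.5%. Shares use FPKM as deposited and differ per kilobase of exon.

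In order of deposited FPKM, PRDX1 came first and TXN second in every library, and TXN2 and TXNRD2 came last. With SFA and with SFE the order between them was PRDX6, PRDX2, SRXN1, PRDX5, TXNRD1 and PRDX3, and no neighbours had overlapping counting intervals. With DMSO it was PRDX2, PRDX6, PRDX5, SRXN1, PRDX3 and TXNRD1, and PRDX2 and PRDX6 (140.3 and 138 FPKM) did not differ beyond counting error on this scale. Levels across genes depend on the length behind the FPKM. The length implied by count and FPKM equalled the summed GENCODE 29 exon length for SRXN1 (2698 bases), but for TXNRD1 it was 18142 bases against 6708 bases of exon, 2.70 times as long, and 9 of the 10 genes had a length over 1.1 times their exon length. Per kilobase of exon, TXNRD1 stood at 119 FPKM with SFA, 104 with SFE and 53.5 with DMSO, above SRXN1 in every library. On that scale TXN stood above PRDX2 with SFA and with SFE (355 and 213 FPKM with SFA, 320.3 and 211 FPKM with SFE), and below it with DMSO (228 and 268 FPKM). The order of PRDX2 and PRDX6 turned as well: PRDX2 stood above PRDX6 in every library per kilobase of exon, at 213 and 199 FPKM with SFA, 211 and 196 FPKM with SFE, and 268 and 182 FPKM with DMSO, with no overlap of their counting intervals. The folds between libraries do not depend on this length.

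Several members share their locus or have copies. TXNRD1 overlaps the pseudogene RPL18AP3, the gene EID3 and an antisense gene, each at 5.92% or less of the TXNRD1 count. TXNRD2 also shares part of its locus with other listed genes. PRDX1 overlaps MMACHC, and PRDX2 overlaps HOOK2 and an antisense gene, each at 3.84% or less of the member's count. With the strand setting of the counting not given in the sources used here, reads in these overlaps cannot be told apart, and these values are uncertain. The 16 listed pseudogene copies of TXN, PRDX1, PRDX2 and PRDX3 had at most 19 counts in any library.

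Other genes of the relay were counted from 6 lists of 40 genes, of which 35 passed the filter. On the log2(FPKM + 1) scale, 1 was at least 2-fold higher and 0 lower with SFA, and 0 were higher and 0 lower with SFE. The shares of all tested genes were 1.36% higher and 1.34% lower with SFA, and 1.37% and 1.01% with SFE. By counts per library total, which carry no pseudocount, NXN and RRM2B were 2.16-fold and 2.02-fold lower with SFE, and GSR was 2.0-fold higher. Of 12 measured genes in the list of other thioredoxin system genes, 6 were higher and 6 lower by any amount with SFA (median 0.02 on the log2 scale), and 7 were higher and 5 lower with SFE (median 0.07). By any amount, 51.4% of all tested genes were higher with SFA and 55.2% with SFE. PRDX4 stood at 58.4 FPKM with SFA, 57.9 FPKM with SFE and 54.7 FPKM with DMSO. TXNIP, which binds and inhibits thioredoxin, stood at 15.3 FPKM with SFA, 18.2 FPKM with SFE and 14 FPKM with DMSO, 1.30-fold above DMSO with SFE (1.2 to 1.40). NXN, the thioredoxin relative nucleoredoxin, stood at 4.59 FPKM with SFA, 4.01 FPKM with SFE and 8.66 FPKM with DMSO, 1.89-fold lower with SFA (1.71 to 2.08) and 2.16-fold lower with SFE (1.95 to 2.40). TXNDC5, a disulfide isomerase of the endoplasmic reticulum, stood at 93.7 FPKM with SFA, 180.2 FPKM with SFE and 102 FPKM with DMSO, 0.916 times DMSO with SFA (0.888 to 0.945) and 1.76-fold higher with SFE (1.72 to 1.81). TXNDC17 stood at 1.88 FPKM with SFA, 1.29 FPKM with SFE and 1.1 FPKM with DMSO. NXN, TXNDC5 and TXNDC17 overlap other listed genes, so their values are uncertain, while PRDX4 and TXNIP do not.

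GSR, the glutathione reductase, was the list gene past 2-fold on the log2(FPKM + 1) scale with SFA. It stood at 124 FPKM with SFA, 100.4 FPKM with SFE and 50.2 FPKM with DMSO, 2.47-fold above DMSO with SFA (2.38 to 2.57) and 2.0-fold with SFE (1.92 to 2.08), and it overlaps no other listed gene. Its log2(FPKM + 1) difference with SFE was 0.99. Relative to TXNRD1, the reductase of the parallel thioredoxin branch, GSR was 1.11 times the DMSO ratio with SFA (1.05 to 1.17) and 1.03 times with SFE (0.973 to 1.08). Of 5 measured genes in this list 4 were higher with SFA (median 0.36) and 4 with SFE (median 0.27). The shares over all tested genes were 51.4% and 55.2%. The glutaredoxin GLRX, which overlaps other genes, stood at 2.53 FPKM with SFA, 1.73 FPKM with SFE and 1.27 FPKM with DMSO. GLRX3 and GLRX5, glutaredoxins of iron-sulfur cluster handling, were 1.30-fold and 1.26-fold above DMSO with SFA and 1.26-fold and 1.18-fold with SFE. GLRX5 also overlaps other listed genes, so its values are uncertain, while GLRX3 does not.

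Among enzymes that supply NADPH, 5 of 6 were higher with SFA (median 0.28) and 5 of 6 with SFE (median 0.24). The shares over all tested genes were 51.4% with SFA and 55.2% with SFE. PGD, a dehydrogenase of the pentose phosphate pathway, stood at 102 FPKM with SFA, 85.9 FPKM with SFE and 70.4 FPKM with DMSO. ME1, the cytosolic malic enzyme, was 1.43-fold above DMSO with SFA (1.32 to 1.56) and 1.35-fold with SFE (1.24 to 1.47), and IDH2, the mitochondrial isocitrate dehydrogenase, 1.22-fold and 1.28-fold. NNT, the mitochondrial transhydrogenase, was 0.684 times DMSO with SFA (0.621 to 0.752) and 0.748 times with SFE (0.681 to 0.820). ME1 and NNT overlap other listed genes, so their values are uncertain, while PGD and IDH2 do not.

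Reductases that draw on thioredoxin had medians near 0, with 2 of 6 measured genes higher with SFA (median −0.09) and 3 of 6 with SFE (−0.06). Among all tested genes 51.4% were higher with SFA and 55.2% with SFE. RRM2, the ribonucleotide reductase subunit of dividing cells, stood at 20.6 FPKM with SFA, 22.8 FPKM with SFE and 22.2 FPKM with DMSO. RRM2B, the subunit that p53 induces, stood at 1.01 FPKM with SFA, 0.915 FPKM with SFE and 1.85 FPKM with DMSO. The methionine sulfoxide reductase MSRB1 was 1.21-fold above DMSO with SFA (1.09 to 1.34) and 1.28-fold with SFE (1.16 to 1.42), MSRB2 was 1.1-fold and 1.2-fold, and MSRB3 0.789 and 0.824 times DMSO. Of the sestrins, a family of stress-responsive genes, SESN2 stood at 26.3 FPKM with SFA, 25.3 FPKM with SFE and 24.6 FPKM with DMSO, and SESN1 at 2.14 FPKM, 2.13 FPKM and 2.54 FPKM in the same order. Of the 2 measured sestrins, 1 was higher and 1 lower by any amount with each compound. The sestrin medians (−0.04 with SFA and −0.07 with SFE) are only the midpoints of these 2 genes. Selenocysteine incorporation, which thioredoxin reductases need, had medians of 0.06 with SFA and 0.01 with SFE over 4 measured genes. SEPHS2, which makes the selenium donor, was 1.25-fold above DMSO with SFA (1.14 to 1.38) and 1.27-fold with SFE (1.16 to 1.39). EEFSEC was 1.15-fold and 1.1-fold above DMSO, SEPHS1 0.959 and 0.929 times DMSO, and SECISBP2 0.771 and 0.784 times DMSO, with SFA and with SFE in that order. MSRB3, SESN1 and EEFSEC overlap other listed genes, so their values are uncertain.

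**Figure D5:**
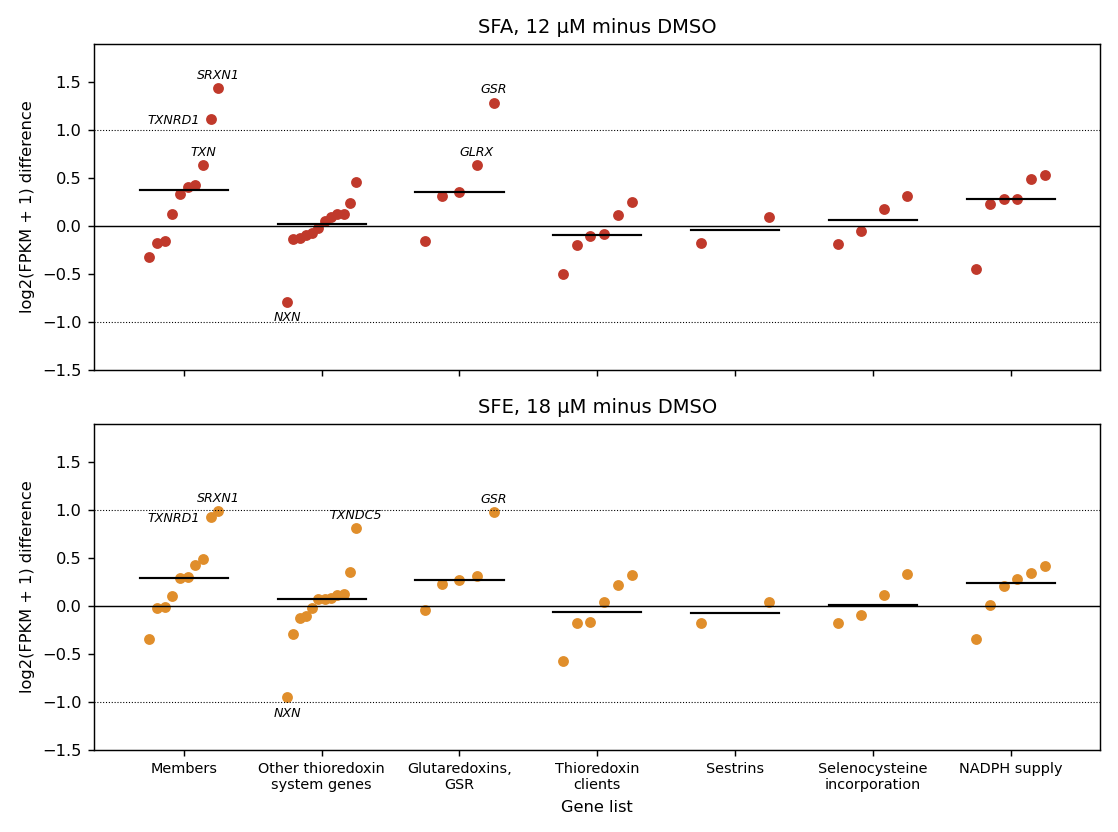
Difference from DMSO on the log2(FPKM + 1) scale (y axis) of the 10 members and of the measured genes in 6 lists (x axis), with SFA above and SFE below. Points are genes, horizontal bars are list medians, dotted lines mark 2-fold, and genes at least 1.5-fold from DMSO are named: SRXN1, TXNRD1 and GSR pass the upper line with SFA.

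Genes with the most similar pair of differences were ranked by Euclidean distance of the log2(FPKM + 1) differences, over 3 libraries, among protein-coding genes that overlap no other and reach 5 FPKM. For TXNRD1 the nearest of 1959 were COMMD7 (distance 0.06), BCAP31 (0.06) and CYR61 (0.11), at 2.59-fold, 2.22-fold and 2.33-fold above DMSO with SFA. For SRXN1 they included the heme oxygenase gene HMOX1 (0.09) and NFKB2 (0.12), with HMOX1 at 48.3 FPKM with SFA, 35.1 FPKM with SFE and 17.9 FPKM with DMSO. For TXN, among 1958 others, they were SLC35C1 (0.01), HMGA1 (0.01) and NDRG1 (0.02), at 1.59-fold, 1.57-fold and 1.64-fold above DMSO with SFA. Each pattern here is a single pair of differences over 3 libraries.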

How the data were processed

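RNA was extracted with TRIzol, depleted of ribosomal RNA and sequenced on Illumina libraries, per the labels' protocols. HISAT2 2.0.4, StringTie 1.2.3 and hg38 are named, per the submitters' processing notes, without roles. Steps not given in the sources used here include the counting tool, the strand setting and the annotation release.

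Raw counts per gene were deposited by the authors for each library. Deposited FPKM values equalled the count over a gene length and the total count: across 22070 genes, the lengths that the 3 libraries imply lay within 0.0831% of one another. Of the identifiers, 98.5% were in GENCODE 29, and all 10 members had the same span there.

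Folds are ratios of counts per library total with exact conditional (Clopper-Pearson) 95% intervals (SciPy 1.17.1). Within-library ratios are conditional odds ratios. With 1 library per group no test was made. Of identifiers sharing a name, that of highest mean FPKM was used. Log2 differences used a pseudocount of 1. The alternatives were a pseudocount of 0.1, a filter at 5 FPKM or none, median-of-ratios and edgeR 4.0.16 TMM scaling, a total without mitochondrially encoded genes, summed identifiers, genes without overlap, protein-coding genes and a 1.5-fold limit. Exon lengths were added after the data were seen. Folds, intervals and calls were checked on simulated Poisson counts around the DMSO proportions. That is the model the intervals assume, with no spread between cultures, so the check concerns the code and not the error of real libraries.

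The members, gene lists and tests were chosen with earlier results of these data known. All members are named. Of each list, the 4 measured genes with the largest difference are named, with PRDX4, TXNIP, GSR and RRM2 whatever their values, and 3 genes nearest in pattern to each of TXNRD1, SRXN1 and TXN. For the nearest genes, folds are given in part, and some items are not reported here.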

Additional observations from a re-analysis of the deposited data

How the results depend on the processing

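All folds of the 10 members stayed on their side of 1 under median-of-ratios and TMM scaling, without mitochondrially encoded genes in the total and with identifiers summed. Their sizes depended more on scaling. Under TMM with SFE the fold was 1.89 for SRXN1, 1.82 for TXNRD1, 1.31 for TXN and 1.14 for PRDX1. These folds, and those of PRDX2 and PRDX6, lay below their total-count intervals. TXN2, TXNRD2, PRDX3 and PRDX5 stayed inside theirs. With SFA under TMM the same genes lay below, except SRXN1, which stayed inside. Under median-of-ratios, TXN, TXNRD1, PRDX1, PRDX2 and PRDX6 lay below with SFE, and only PRDX1 with SFA. With SFE, whether the counting interval of PRDX3, PRDX5 and PRDX6 includes 1 depends on the scaling. TMM scaling shifted log2 differences by −0.06 with SFA and −0.10 with SFE.

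The count of members at least 2-fold higher with SFE was 1 (SRXN1) with a pseudocount of 0.1 and 2 at a 1.5-fold limit, against 0 at the main settings. With SFA it was 0 among the 5 members that overlap no other gene, against 2, since SRXN1 and TXNRD1 overlap other genes. The gene that overlaps SRXN1 had at most 1 count in a library. Of all tested genes that overlap no other, 1.39% were at least 2-fold higher with SFA. The medians of these 5 members were 0.13 with SFA and 0.11 with SFE, beside 0.01 and 0.03 over all such genes. Of the listed other genes, NXN was at least 2-fold lower with SFE (count 1, against 0) with a pseudocount of 0.1, with median-of-ratios and with TMM scaling. At the 1.5-fold limit 2 listed genes were higher and 1 lower with SFA, and 2 were higher and 1 lower with SFE. Of all tested genes, 5.36% were higher and 4.67% lower with SFA at that limit, and 5.34% and 3.48% with SFE. The pseudocount of 0.1 gave 452 genes at least 2-fold higher and 374 lower with SFA, and 464 and 282 with SFE, against 159, 157, 160 and 118 in that order at a pseudocount of 1. At 5 FPKM they were 98, 95, 94 and 72 of 5455 genes, and among genes that overlap no other 55, 48, 47 and 33 of 3957. Over protein-coding genes 101 of 9444 (1.07%) were higher with SFE, beside 1.37% of all tested genes. Under median-of-ratios scaling 130 of 11677 genes (1.11%) were higher and 145 (1.24%) lower with SFE. Under TMM they were 127 (1.09%) and 148 (1.27%) of 11688. With SFA, TMM gave 150 (1.28%) higher and 173 (1.48%) lower.

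No paired analysis was possible because each condition had 1 library. For the same reason no library was left out in turn. Depth limits TXNRD2 and TXN2 most, at 701 to 840 counts per library.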

Other observations

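The length by which the deposited FPKM was divided exceeded the exon length for most genes. Over 9444 protein-coding genes tested, the implied length was a median of 1.56 times the summed GENCODE 29 exon length, and it was over 1.1 times that length for 85.9% of them. Levels of different genes are therefore set by this choice of length as well as by their counts, and the pseudocount weighs more on genes with a long implied length, such as TXNRD1 (18142 bases) and TXNRD2 (15300 bases). With log2 differences taken per kilobase of exon instead, the median of the 10 members was 0.38 with SFA and 0.31 with SFE.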
